A study of Mus musculus with 11 samples.

Results

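Voltage-gated ion channels are membrane proteins that open when the voltage across the membrane changes and let potassium, sodium or calcium through. Each is built on a pore-forming alpha subunit, and accessory subunits set how many channels reach the membrane and how fast they open and close. In the developing retina, sodium channels are a feature of the neurons that leave the cell cycle, among which ganglion cells come first, whereas potassium and calcium channels are found in many cell types. The genes described here were taken by symbol from the raw count table: every symbol that starts with Kcn and 1 or more letters before a digit, with Scn, a number and a or b, or with Cacna, Cacnb or Cacng. The rule found 67 genes among 13498 in the table, and all 67 were among the 13292 genes with enough reads to test. It also brought in genes that are not voltage-gated. Among them were 5 inward rectifier and 4 two-pore-domain potassium channel genes and the calcium-activated channel genes Kcnn1 and Kcnn2. Another was Kcnq1ot1, a noncoding imprinted antisense transcript of the Kcnq1 locus. The calcium channel gamma group includes genes better known as AMPA receptor partners, such as Cacng2 and Cacng8.

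Retinas of NMRI mice were taken at E13.5, and each library was made from RNA of a pair of retinas. All embryos were homozygous for a floxed Six3 allele (Six3F/F), and all dams had tamoxifen (20 mg/mL, 0.15 mL a time) at E10.5 and again at E11.5. The DKO group (3 libraries) also carried CAGGCre-ERTM, a ubiquitous tamoxifen-inducible Cre, and the germline Six6–/– genotype. The Six3KO group (3 libraries) carried CAGGCre-ERTM with Six6+/+, the Six6KO group (2 libraries) was Six6–/– without Cre, and the WT group (3 libraries) was Six3F/F; Six6+/+ without Cre. Presence of Cre and loss of Six3 therefore cannot be told apart in comparisons of a Cre-carrying group with a Cre-free one. Six3 and Six6 are related homeodomain proteins that act in the eye field and in retinal progenitors.

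The 11 libraries held 7807744 to 16403191 reads assigned to genes. Six3 stood at 56.2 to 98.2 CPM (reads of a gene relative to the scaled size of its library) in DKO and 30.3 to 75.9 CPM in Six3KO, against 164 to 299 CPM in WT, and Six6 stood at 52.8 to 99.8 CPM in DKO and 76.8 and 131 CPM in Six6KO, against 225 to 340 CPM in WT. The summed level of 10 retinal progenitor markers was 3867 to 5419 CPM in DKO, 3458 to 6360 CPM in Six3KO, 4222 and 6710 CPM in Six6KO and 5779 to 8359 CPM in WT, and 0 of the 10 passed in DKO against WT. Tissue around the retina differed between libraries: the summed level of 13 periocular mesenchyme markers was 57.0 to 123 CPM in DKO, 399 to 3768 CPM in Six3KO, 1489 and 2323 CPM in Six6KO and 372 to 2049 CPM in WT, and 1 of the 13 passed, lower, in DKO against WT. The summed level of 14 skeletal muscle markers was 10.2 to 1132 CPM in DKO, 98.7 to 1614 CPM in Six3KO, 2528 and 2588 CPM in Six6KO and 23.3 to 60.2 CPM in WT, and 0 of the 14 passed in DKO against WT. The summed level of 12 lens markers was 8.01 to 179.6 CPM in DKO, 239 to 21790 CPM in Six3KO, 32.5 and 9643 CPM in Six6KO and 12.6 to 1115 CPM in WT, and 0 of the 12 passed in DKO against WT. In bulk RNA, fewer cells of a type and less RNA per cell cannot be told apart.

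The comparison of DKO with WT asks what combined loss of both factors, together with the presence of Cre, changes. In it, 4 of 67 channel genes passed the test (edgeR's quasi-likelihood test, adjusted p under 0.05 over all genes tested). Kcnh5 and Kcnj3 were higher in DKO, and Kcnb2 and Kcnf1 were lower. The 4 genes are 5.97% of the channel genes, and 1.29% of all genes tested passed in this comparison, 0.655% higher and 0.639% lower. All 4 encode potassium channel subunits. No sodium or calcium channel gene passed, although the calcium channel gene Cacna1e came close. DESeq2, a second count test, called 11 channel genes (4 higher and 7 lower), where it called 5.73% of all genes (2.3% higher and 3.43% lower). Besides the same 4 genes these were Cacna1e and Kcnma1 on the higher side and Cacna1c, Cacng5, Kcnab1, Kcnip1 and Kcnq5 on the lower side.

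Kcnh5 encodes a pore-forming subunit of the ether-a-go-go family of voltage-gated potassium channels. It had 25, 19.1 and 17.1 CPM in DKO, 5.35, 11.52 and 12.7 CPM in Six3KO, 6.61 and 5.24 CPM in Six6KO, and 6.72, 6.36 and 6.499 CPM in WT. Every DKO library lay above all 8 others, and the WT libraries lay within a narrow band. Kcnh5 was 3.12-fold higher in DKO than in WT (log2 fold change 1.64 ± 0.306 SE, adjusted p = 0.0395). Of the 6 libraries compared, leaving out DKO rh021 kept the call (adjusted p = 0.046), and leaving out DKO rh010, DKO rh011, WT rh016, WT rh023 or WT rh024 ended it, with adjusted p = 0.194, 0.151, 0.131, 0.0912 and 0.124 and fold changes that stayed between 1.47 and 1.75 on the log2 scale. With the mesenchyme marker level as a term in the fit the value was 1.61 ± 0.439 SE (adjusted p = 0.107). That level (mean log2 CPM of the markers minus the WT mean) was -3.37, -2.51 and -2.78 in DKO. The lowest library outside DKO was WT rh023, at -2.16. Fits with this term therefore cannot fully tell mesenchyme level and DKO genotype apart.

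Kcnj3 encodes a G-protein-gated inward rectifier, which opens when certain receptors release G-protein subunits. It had 21.9, 26.7 and 24.8 CPM in DKO, 14.9, 11.52 and 17.7 CPM in Six3KO, 12.99 and 15.3 CPM in Six6KO, and 14.9, 9.94 and 10.7 CPM in WT. DKO again lay above the other 8 libraries, and Six3KO and Six6KO overlapped WT. The difference between DKO and WT was 2.06-fold (log2 1.04 ± 0.205 SE, adjusted p = 0.0476). The call ended without any 1 of the 6 libraries: adjusted p = 0.162, 0.214 and 0.0862 without DKO rh010, rh011 and rh021, and 0.0517, 0.106 and 0.149 without WT rh016, rh023 and rh024. It also ended with no scaling beyond library size (adjusted p = 0.0545), and held with the mesenchyme term (log2 1.49 ± 0.218 SE, adjusted p = 0.022). In the annotation, 31.1% of the exon length of Kcnj3 lies opposite exons of the noncoding gene Gm26794, and since no source states whether counting used strand, the level of Kcnj3 may include reads of both genes.

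Kcnb2 encodes a delayed-rectifier pore subunit. It had 7.21, 10.1 and 8.40 CPM in DKO, 14.2, 13.2 and 14.0 CPM in Six3KO, 11.95 and 13.3 CPM in Six6KO, and 16.3, 17.0 and 14.9 CPM in WT. DKO lay below all other libraries, and the Six3KO and Six6KO libraries lay between DKO and WT without overlapping either. In DKO it fell by 0.91 ± 0.157 SE on the log2 scale against WT (adjusted p = 0.03). The call ended without any 1 of the 6 libraries: adjusted p = 0.162, 0.0717 and 0.062 without DKO rh010, rh011 and rh021, and 0.0951, 0.0745 and 0.062 without WT rh016, rh023 and rh024. It also ended with the mesenchyme term (log2 -0.88 ± 0.218 SE, adjusted p = 0.0867) and when DKO and WT were fitted alone (adjusted p = 0.0695).

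Kcnf1 encodes a modifier subunit that forms no channel alone and joins other pore subunits of the Kcnb type. It had 0.820, 0.745 and 1.90 CPM in DKO, 2.98, 3.07 and 2.12 CPM in Six3KO, 9.86 and 2.46 CPM in Six6KO, and 6.96, 13.6 and 7.01 CPM in WT. DKO lay below all other libraries, Six3KO lay below WT, and the 2 Six6KO libraries differed widely. These levels rest on 10, 9 and 24 reads in DKO and 89, 118 and 55 reads in WT. In DKO it fell by 2.98 ± 0.586 SE on the log2 scale against WT (adjusted p = 0.0476). Without DKO rh021 the call held at adjusted p = 0.0405, and without DKO rh010, DKO rh011, WT rh016, WT rh023 or WT rh024 it ended, at adjusted p = 0.237, 0.22, 0.0997, 0.0887 and 0.0815. With the mesenchyme term the value was -3.54 ± 0.654 SE (adjusted p = 0.0412).

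**Figure D1:**
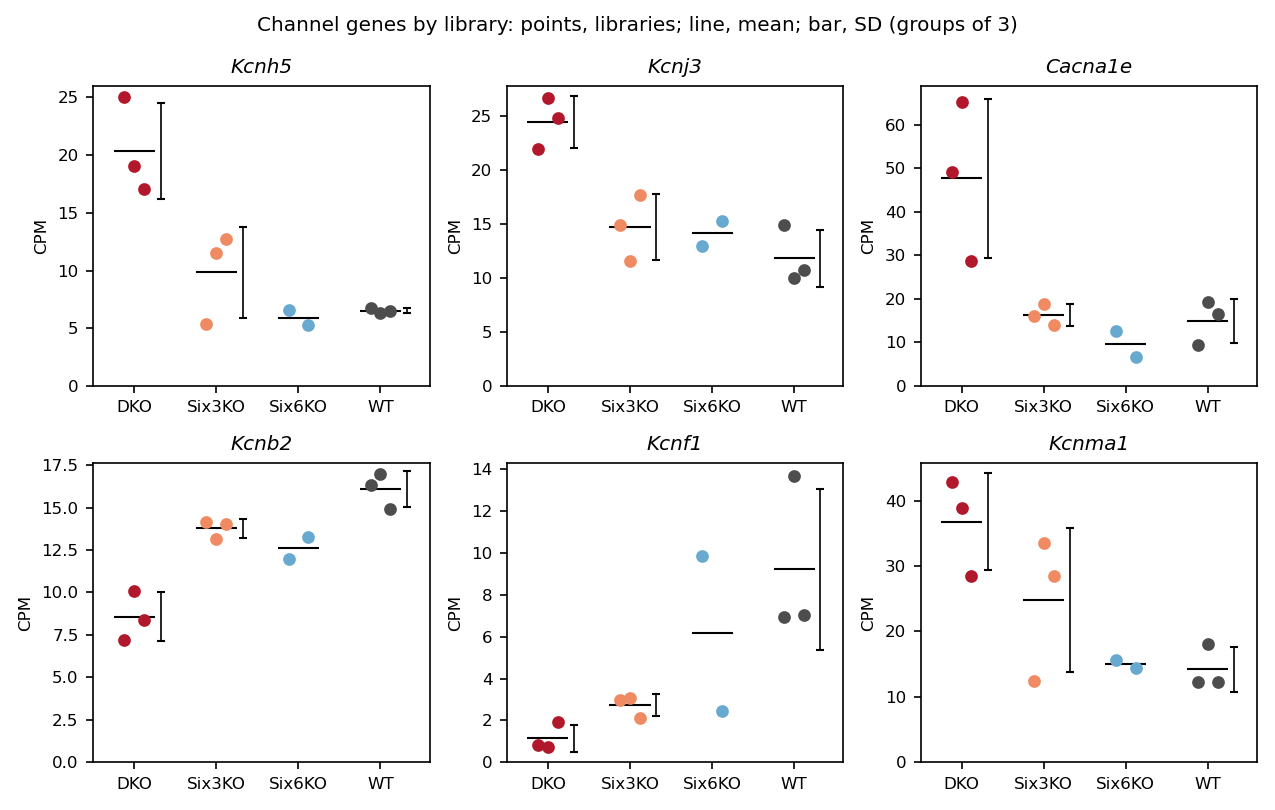
CPM of 6 channel genes, with 1 point per library, a line at the group mean, a bar of 1 SD for groups of 3, and the groups in the order DKO, Six3KO, Six6KO and WT. Kcnh5, Kcnj3 and Cacna1e lie higher in all 3 DKO libraries than in any other library, and Kcnb2 and Kcnf1 lie lower.

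Kcnh5 lies on chromosome 12, minus strand, chr12:74897220-75177332, Kcnf1 on the same chromosome and strand at chr12:17172100-17176888 as a single exon, Kcnj3 on chromosome 2, plus strand, chr2:55435970-55598145, and Kcnb2 on chromosome 1, plus strand, chr1:15287254-15723750 (GENCODE annotation of GRCm38, of which mm10, the submitters' build, is another name). The promoter windows of 3 of these genes are shown because Six3 and Six6 are homeodomain proteins and the genes moved in opposite directions. Each window is RefSeq sequence of build GRCm38.p6, with 250 bases before and 50 after the gene's start, read 5′ to 3′ on the gene's strand, at chr12:75177283-75177582 (minus strand) for Kcnh5, chr2:55435720-55436019 (plus strand) for Kcnj3 and chr12:17176839-17177138 (minus strand) for Kcnf1. Capitals mark TAAT, the core that many homeodomain proteins bind.
Kcnh5: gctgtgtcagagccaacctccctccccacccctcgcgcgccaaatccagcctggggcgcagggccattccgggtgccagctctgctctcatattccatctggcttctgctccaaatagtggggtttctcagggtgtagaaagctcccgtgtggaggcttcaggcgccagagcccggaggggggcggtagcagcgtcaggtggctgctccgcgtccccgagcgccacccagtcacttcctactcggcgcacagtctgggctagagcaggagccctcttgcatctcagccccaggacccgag
Kcnj3: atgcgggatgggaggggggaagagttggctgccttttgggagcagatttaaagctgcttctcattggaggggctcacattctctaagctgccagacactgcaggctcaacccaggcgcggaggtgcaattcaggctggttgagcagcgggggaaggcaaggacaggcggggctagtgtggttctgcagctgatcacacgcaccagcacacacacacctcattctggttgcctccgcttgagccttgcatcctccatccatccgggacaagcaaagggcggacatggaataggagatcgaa
Kcnf1: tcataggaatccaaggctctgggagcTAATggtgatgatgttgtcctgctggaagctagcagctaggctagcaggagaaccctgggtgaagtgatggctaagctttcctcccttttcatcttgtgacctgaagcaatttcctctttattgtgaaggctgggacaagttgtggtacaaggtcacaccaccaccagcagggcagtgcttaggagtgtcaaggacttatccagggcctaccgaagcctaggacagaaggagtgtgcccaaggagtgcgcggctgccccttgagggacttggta
TAAT on either strand occurred 0 times in the windows of Kcnh5 and Kcnj3, and 1 time in that of Kcnf1. Of the 52 channel genes with a window, 27 (51.9%) held TAAT, against 58.3% of 27025 promoter windows in the RefSeq table and 40.9% of the 10179 windows of tested genes. TAATTA, a longer homeodomain site that contains TAAT, was in 0 of 52 windows, against 5.31% of all windows and 2.33% of those of tested genes. TCAGGTT, a core described for Six3 and its relatives, was in 2 of 52 (3.85%), against 4.04% of all windows and 3.07% of those of tested genes. The E box CANNTG was in 69.2% of the channel gene windows, against 72.1% of all windows and 62.4% of those of tested genes. All 4 motifs were searched on both strands. The channel gene windows had a median GC content of 61.5%, against 52.7% over all windows. No GC median was computed for the windows of tested genes, so these values do not set channel genes apart from tested genes.

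Over all 67 channel genes, 46 had a log2 fold change below 0 in DKO against WT, and the median was -0.33. Over all genes tested the median was -0.00363, with 50.8% below 0. An unadjusted p under 0.05 was reached by 18 channel genes (26.9%), 5 of them higher and 13 lower, against 13% of all genes (5.47% higher and 7.53% lower). DKO and WT libraries did not overlap for 5 higher channel genes (7.46%, against 9.03% of all genes) and 15 lower ones (22.4%, against 8.46% of all genes). Set against all 8 other libraries, DKO lay above them for 3 channel genes (4.48%, against 4.21% of all genes) and below them for 8 (11.9%, against 3.57%). The 3 were Cacna1e, Kcnh5 and Kcnj3, and the 8 were Cacna1c, Kcna6, Kcnab1, Kcnb2, Kcnd2, Kcnf1, Kcnip1 and Kcnq5. Marker lists of retinal cell types also had medians below 0 in DKO against WT, though some members went the other way. Of the progenitor markers, Pax6 had 1079, 1064 and 907 CPM in DKO, against 576, 816 and 769 CPM in WT. Rax and Lhx2 also lay higher in DKO than in WT without overlap. Of 10 amacrine and horizontal cell markers 7 had an unadjusted p under 0.05 and lay lower (0 passed, median log2 fold change -2.37), as did 8 of 9 photoreceptor precursor markers (2 passed, median -1.77), 4 of 15 ganglion cell markers (1 passed, median -0.76) and 4 of 10 progenitor markers (0 passed, median -0.41). The part of cell type content in the channel gene values was not tested beyond a fit with a neuron marker term.

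**Figure D2:**
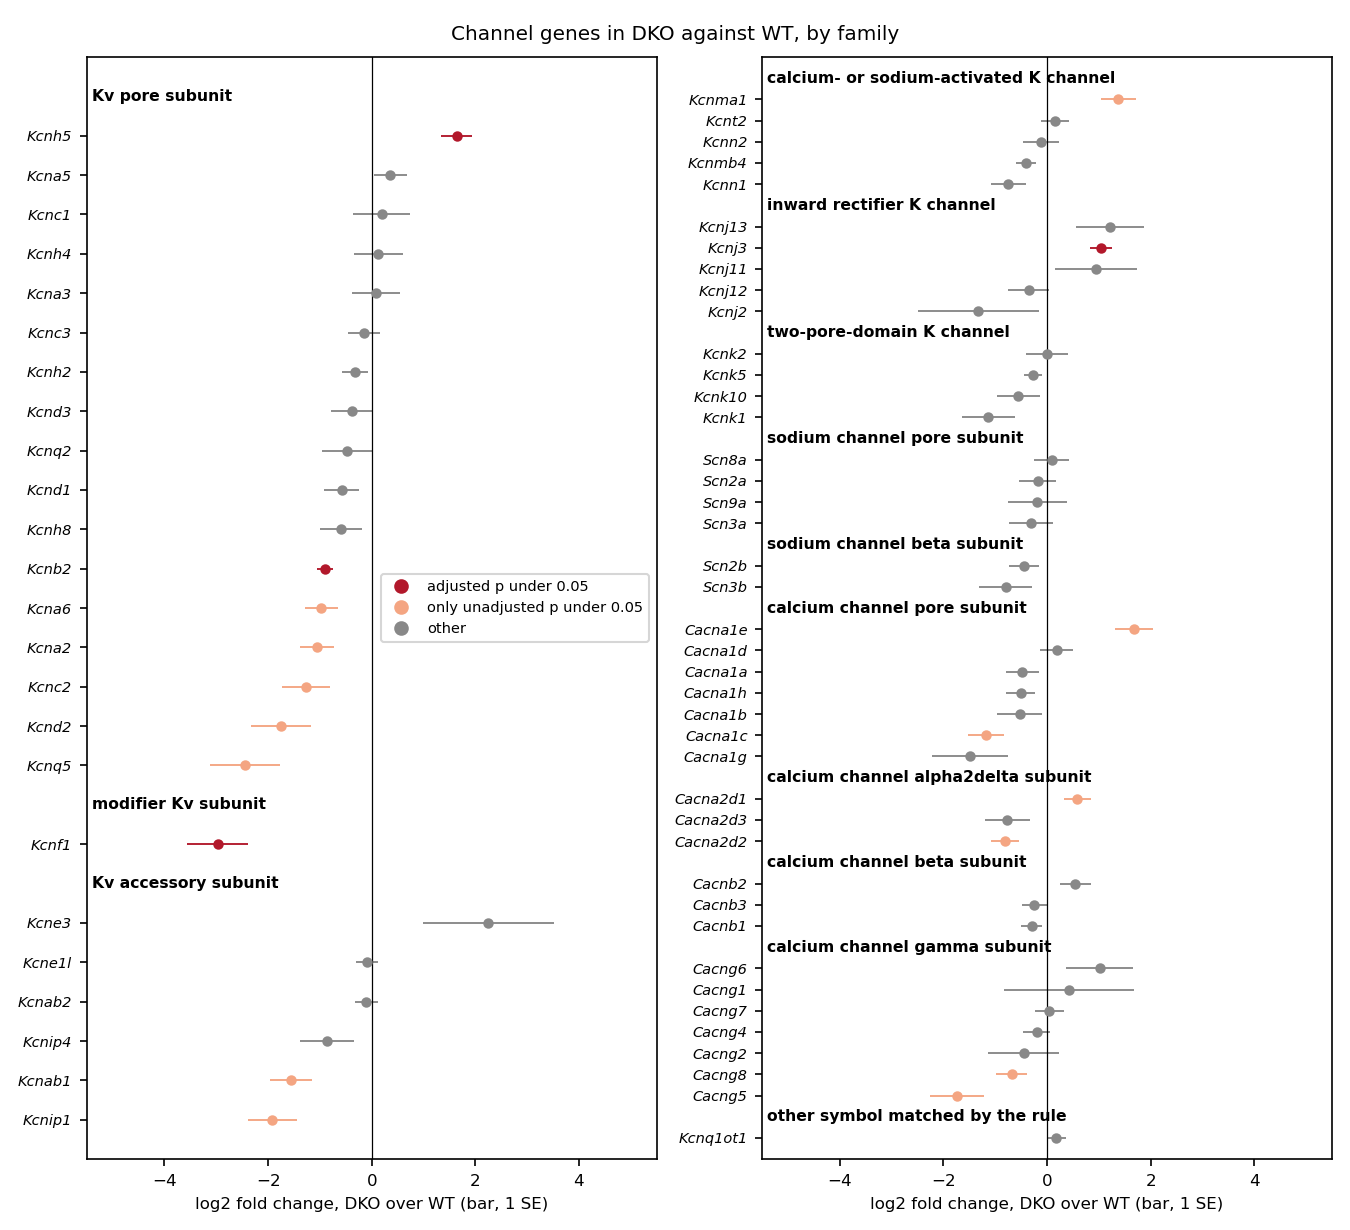
Log2 fold change of DKO over WT for 65 of the 67 channel genes, grouped by family, with bars of 1 SE from the fit. Filled red points mark the 4 genes with an adjusted p under 0.05, and pale points the genes with only an unadjusted p under 0.05; 45 of the 65 points lie left of 0.

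Among the 19 voltage-gated potassium pore subunits, 1 passed higher, 1 passed lower and 17 did not pass, with a median log2 fold change of -0.48. Several of those that did not pass had values well below 0. Kcnq5, whose product carries a slow M-type current, had 1.80, 1.99 and 2.54 CPM in DKO, 11.6, 4.32 and 22.4 CPM in Six3KO, 12.8 and 22.3 CPM in Six6KO, and 19.5, 3.93 and 11.1 CPM in WT. Its log2 fold change in DKO against WT was -2.45 ± 0.678 SE (adjusted p = 0.133). The libraries with the lowest Kcnq5 outside DKO, WT rh023 and Six3KO rh012, were also those with the least mesenchyme marker RNA in their groups, at 372 and 399 CPM summed over the list. With the mesenchyme level as a term in the fit, the Kcnq5 value was -0.35 (adjusted p = 0.777), whereas with a neuron marker term it passed at -2.68 (adjusted p = 0.0242) and in DESeq2 at -2.44 (adjusted p = 0.007). The part of mesenchyme in the Kcnq5 level was not tested beyond the mesenchyme fit, which cannot fully tell mesenchyme level and DKO genotype apart.

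Kcnd2, a subunit of fast-inactivating A-type channels, had 1.07, 1.24 and 1.67 CPM in DKO, 4.50, 1.82 and 11.7 CPM in Six3KO, 3.48 and 4.71 CPM in Six6KO, and 4.85, 3.59 and 4.97 CPM in WT. DKO lay below all others, with a log2 fold change of -1.75 ± 0.582 SE against WT (adjusted p = 0.217), or -0.54 with the mesenchyme term and -2.01 with the neuron term (adjusted p = 0.0306). The mesenchyme fit has the same limit for Kcnd2 as for Kcnq5. Kcna2 and Kcna6, Shaker-type delayed-rectifier subunits, had log2 fold changes of -1.05 ± 0.329 SE and -0.97 ± 0.326 SE, with adjusted p = 0.183 and 0.221. For Kcna6, 39.6% of the exon length lies opposite the antisense gene Gm26673. Its lowest libraries outside DKO were WT rh023 (9.02 CPM) and Six3KO rh012 (9.60 CPM), as for Kcnq5. Over 15 alternative fits of DKO against WT, the Kcna6 value ranged from -1.20 to -0.23 and passed in 0. Against Six6KO it was -0.86, and 0.125 with the mesenchyme term. The mesenchyme fit has the same limit for Kcna6, and the part of mesenchyme in its level was not tested further. Kcnc2, a fast Shaw-type subunit, had a value of -1.26 ± 0.463 SE (adjusted p = 0.263).

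Of the 6 accessory subunits of voltage-gated potassium channels, 0 passed and 5 had values below 0. Kcnip1, a calcium-binding partner of the Kcnd channels, had 0.410, 0.994 and 1.51 CPM in DKO, 2.62, 2.40 and 2.62 CPM in Six3KO, 1.74 and 3.42 CPM in Six6KO, and 4.69, 2.54 and 3.82 CPM in WT. DKO lay below every other library, at a level of 5 to 19 reads per library, with a log2 fold change of -1.92 ± 0.481 SE against WT (adjusted p = 0.103). Kcnab1, a cytoplasmic beta subunit of Shaker-type channels, averaged 2.82 ± 0.483 CPM in DKO and 8.27 ± 1.27 CPM in WT (SD, n = 3 each; log2 -1.55 ± 0.406 SE, adjusted p = 0.117). Its relative Kcnab2 averaged 13.4 ± 2.68 CPM in DKO and 14.4 ± 2.38 CPM in WT. Kcne1l, a single-span accessory subunit, averaged 10.53 ± 1.23 CPM in DKO and 11.2 ± 1.95 CPM in WT.

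Among the 5 genes for calcium- or sodium-activated potassium channels, 0 passed. Kcnma1, the pore of the large-conductance BK channel, had 42.9, 38.8 and 28.5 CPM in DKO, 12.5, 33.5 and 28.5 CPM in Six3KO, 15.7 and 14.4 CPM in Six6KO, and 12.3, 18.2 and 12.2 CPM in WT. All DKO libraries lay above WT and Six6KO, but 1 Six3KO library exceeded the lowest DKO library and another lay just under it. The log2 fold change in DKO against WT was 1.37 ± 0.336 SE (adjusted p = 0.0976; 0.0398 when DKO and WT were fitted alone and 0.00523 in DESeq2), and in Six3KO against WT 0.80 ± 0.335 SE (unadjusted p = 0.0391, adjusted p = 1). Of 15 alternative fits of DKO against WT, Kcnma1 passed in those 2 and not in the other 13, with adjusted p up to 0.388. Its accessory subunit Kcnmb4 averaged 7.49 ± 1.22 CPM in DKO and 9.90 ± 1.52 CPM in WT. Of the exon length of Kcnmb4, 20.8% lies opposite Kcnmb4os2 and 10.7% opposite Kcnmb4os1, with the same limit as for Kcnj3. Kcnn1, a small-conductance calcium-activated channel, averaged 13.53 ± 0.286 CPM in DKO and 22.8 ± 5.82 CPM in WT, with adjusted p = 0.397.

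Besides Kcnj3, 4 inward rectifiers were measured and none of the 4 passed. Kcnj13, known for its place in the pigment epithelium, had 5.66, 6.71 and 3.09 CPM in DKO, against 4.38, 0.809 and 1.27 CPM in WT, with overlapping groups and adjusted p = 0.502. In its annotation 49.1% of the exon length lies opposite the gene Gigyf2, with the same limit. The summed level of 8 pigment epithelium markers was 99.9 to 341 CPM in DKO and 50.4 to 1611 CPM in WT, and its part in the Kcnj13 value was not tested. Kcnj2, a strong inward rectifier, varied widely within groups: WT rh016 had 20.5 CPM against 0.809 and 3.06 CPM in the other WT libraries. The 4 two-pore-domain channel genes, which carry background potassium currents, all had values below 0 in DKO against WT, between -1.13 for Kcnk1 and -0.000991 for Kcnk2, and 0 passed. The Kcnk1 value rested on 1 library: it had 5.57, 7.54 and 9.75 CPM in DKO, against 32.9 CPM in WT rh016 and 8.90 and 8.03 CPM in the other WT libraries, and without WT rh016 it was -0.15.

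None of the 4 sodium channel pore genes passed in DKO against WT. Scn3a, a sodium channel of immature neurons, had 66.7, 70.9 and 70.8 CPM in DKO, 82.9, 117 and 38.3 CPM in Six3KO, 70.7 and 35.1 CPM in Six6KO, and 84.0, 122 and 52.8 CPM in WT. The groups overlapped, and the spread within WT and Six3KO exceeded the difference between group means. The log2 fold changes in DKO against WT were -0.31 for Scn3a, -0.18 for Scn2a, -0.18 for Scn9a and 0.09 for Scn8a, with adjusted p between 0.87 and 0.969. For Scn3a the value turned to 0.02 without WT rh023, for Scn2a to 0.05 and for Scn9a to 0.37. The beta subunits Scn2b and Scn3b, which anchor and modulate the pore, had values of -0.45 ± 0.291 SE and -0.80 ± 0.509 SE, and neither passed.

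The level of Scn3a moved with neuron marker RNA across libraries. The summed level of 12 markers of postmitotic neurons was 2196 to 2613 CPM in DKO, 1569 to 3928 CPM in Six3KO, 1572 and 2949 CPM in Six6KO and 2203 to 4034 CPM in WT, with 0 of the 12 called in DKO against WT and a median log2 fold change of -0.35. Six3KO rh026 and Six6KO rh020, the libraries with the least, also had the lowest Scn3a. Six6KO rh020 was the lowest of all 11 libraries for 21 of 67 channel genes (31.3%, against 15.7% of all genes), and WT rh023 the highest for 17 (25.4%, against 11.8%). Six3KO rh026, however, was the lowest for only 6 (8.96%, against 13.9%) and the highest for 9 (13.4%, against 12.1%). The part of the neuron content in these levels was not tested beyond the fit with a neuron term, in which the median of the channel genes in DKO against WT was -0.13 and 12 passed, 4 higher and 8 lower. In that fit 4.96% of all genes passed, 2.19% higher and 2.77% lower. Besides the 4 genes called without the term, the 12 were Cacna1e and Cacna2d1 on the higher side and Cacna1c, Kcna2, Kcnab1, Kcnd2, Kcnip1 and Kcnq5 on the lower side.

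**Figure D3:**
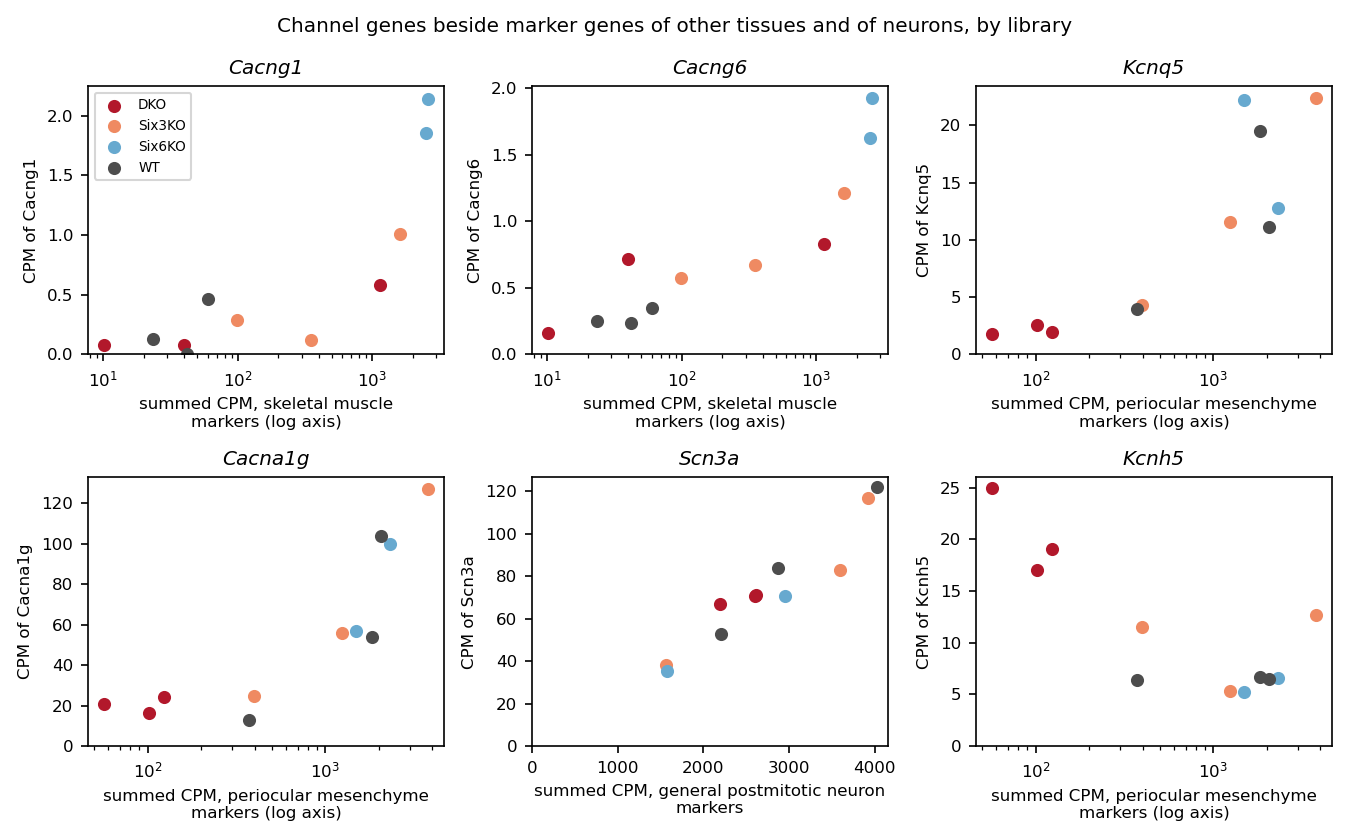
CPM of Cacng1, Cacng6, Kcnq5, Cacna1g, Scn3a and Kcnh5 against the summed CPM of a marker list (skeletal muscle, mesenchyme or neuron), 1 point per library and coloured by group. Scn3a is high in libraries with much neuron marker RNA, and Kcnq5 is low and Kcnh5 high in the DKO libraries, which hold 57.0 to 123 CPM of mesenchyme markers.

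Of the 7 calcium channel pore genes, 0 passed in DKO against WT. Cacna1e, which encodes the R-type channel, had 49.0, 65.2 and 28.8 CPM in DKO, 16.0, 18.9 and 13.9 CPM in Six3KO, 12.7 and 6.74 CPM in Six6KO, and 9.38, 19.2 and 16.4 CPM in WT. DKO lay above all other libraries, though in CPM its own libraries differed by more than those of the other groups. The SD of log2 CPM was 0.596 in DKO, 0.219 in Six3KO, 0.629 in Six6KO and 0.536 in WT. The difference from WT was 3.19-fold (log2 1.67 ± 0.364 SE, adjusted p = 0.0648). It passed without DKO rh021 (log2 1.93, adjusted p = 0.0309), with the neuron term (adjusted p = 0.0243) and in DESeq2 (adjusted p = 0.000567). In the other 12 of 15 alternative fits it did not pass, with adjusted p up to 0.257. The gene lies on chromosome 1, minus strand, at chr1:154390731-154884501, and no exon of another gene overlaps its exons, nor those of Kcnh5, Kcnb2 and Kcnf1.

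Cacna1c, the L-type pore known from heart and smooth muscle, had 18.7, 20.4 and 21.0 CPM in DKO, 44.8, 29.7 and 70.5 CPM in Six3KO, 54.7 and 49.1 CPM in Six6KO, and 45.3, 27.1 and 64.0 CPM in WT. DKO lay below every other library, with a log2 fold change of -1.18 ± 0.344 SE against WT (adjusted p = 0.148). With the mesenchyme level in the fit, which cannot fully tell that level and DKO genotype apart, the value was -0.19 (adjusted p = 0.782). It was -1.28 with the neuron term (adjusted p = 0.0214) and -1.18 in DESeq2 (adjusted p = 0.0238). Cacna1g, a T-type pore, showed a like order, at 16.2 to 24.1 CPM in DKO, 24.5 to 127 CPM in Six3KO, 56.9 and 99.9 CPM in Six6KO and 12.95 to 104 CPM in WT. Its groups overlapped through WT rh023, which had 12.95 CPM. The second L-type pore, Cacna1d, averaged 123 ± 12.7 CPM in DKO and 108 ± 51.6 CPM in WT, with adjusted p = 0.912.

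Among the accessory calcium channel subunits, 0 of 3 alpha2delta, 0 of 3 beta and 0 of 7 gamma genes passed. The alpha2delta subunits carry the pore to the membrane, and their members went different ways: Cacna2d1 averaged 173 ± 20.0 CPM in DKO, against 115 ± 39.9 CPM in WT, with adjusted p = 0.367, and Cacna2d2 averaged 7.51 ± 0.126 CPM in DKO, against 13.2 ± 3.21 CPM in WT, with adjusted p = 0.221. The value of Cacna2d1 was 0.04 on the log2 scale with the mesenchyme term, against 0.59 without. The mesenchyme fit has the same limit here as for Cacna1c. Among the beta subunits, which bind the pore on its inner face, values lay between -0.30 for Cacnb1 and 0.54 for Cacnb2. Among the gamma subunits, Cacng5 had 0.820, 1.82 and 0.872 CPM in DKO, against 2.42, 4.74 and 4.72 CPM in WT (log2 -1.74 ± 0.518 SE, adjusted p = 0.155). Those groups did not overlap, and the level was low in all of them.

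No channel gene passed in either single mutant against WT. In Six3KO against WT, 0 of 67 passed in edgeR and 1 of all genes tested did (0.00752%). An unadjusted p under 0.05 was reached by 4 channel genes (5.97%, against 3.5% of all genes), which were Kcnf1, Kcnma1, Kcnj11 and Cacng6. Kcnf1 had 2.98, 3.07 and 2.12 CPM in Six3KO, against 6.96, 13.6 and 7.01 CPM in WT, with no overlap (log2 -1.75 ± 0.55 SE, unadjusted p = 0.0102, adjusted p = 1). Kcnj11, the pore of ATP-sensitive potassium channels, had 0.608, 4.42 and 5.25 CPM in Six3KO, against 0.469, 0.578 and 0.510 CPM in WT, so that 2 Six3KO libraries carried the difference. These were the libraries with the most lens marker RNA, which summed to 239, 21790 and 17400 CPM over the 12 markers in Six3KO, against 12.6, 141 and 1115 CPM in WT. Of the 12 lens markers, 12 had values above 0 in Six3KO against WT, 6 had an unadjusted p under 0.05 and 0 passed. The lens-rich library Six6KO rh020, at 9643 CPM, had 2.57 CPM of Kcnj11, against 0.696 CPM in Six6KO rh007, and the part of lens RNA in the Kcnj11 values was not tested. DESeq2 called 0 channel genes in Six3KO against WT as well, where it called 0.152% of all genes.

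In Six6KO against WT, 0 of 67 channel genes and 0 of all genes tested passed in edgeR (0%), and 0 channel genes passed in DESeq2, which called 0.0149% of all genes. An unadjusted p under 0.05 was reached by 5 channel genes (7.46%, against 3.9% of all genes). Kcne1l had 16.2 and 21.0 CPM in Six6KO, against 13.2, 11.1 and 9.30 CPM in WT, with no overlap (log2 0.73 ± 0.227 SE, unadjusted p = 0.00981, adjusted p = 0.991). Kcna2 and Cacng5 had values of -0.86 and -1.37. Cacng1 and Cacng6 belong to the gamma family, and Cacng1 is the gamma subunit of the skeletal muscle calcium channel. Cacng1 had 16 and 20 reads in Six6KO, against 0, 4 and 1 reads in WT, and Cacng6 had 14 and 18 reads in Six6KO, against 3, 3 and 2 in WT. Between Six6KO and WT, both were higher where skeletal muscle markers were: Myog, a muscle transcription factor, stood at 17.5 and 40.6 CPM in Six6KO and at 0 to 1.49 CPM in WT. In DKO rh010, rh011 and rh021, Cacng6 had 0.164, 0.828 and 0.71 CPM, where summed muscle markers were 10.2, 1132 and 39.7 CPM. Cacng1 had 0.082, 0.580 and 0.079 CPM in those libraries, from 1, 7 and 1 reads. In Six3KO rh006, rh012 and rh026, Cacng1 had 0.122, 0.288 and 1.01 CPM and Cacng6 had 0.669, 0.576 and 1.21 CPM. Summed muscle markers there were 349, 98.7 and 1614 CPM. The part of muscle RNA in these values was not tested.

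DKO was also set against each single mutant. Against Six3KO, 0 of 67 channel genes passed in edgeR, where 0.587% of all genes did. An unadjusted p under 0.05 was reached by 16 channel genes (23.9%, against 13.2% of all genes), 3 higher and 13 lower, where 4.75% and 8.49% of all genes were, and DESeq2 called 9 (3 higher and 6 lower), where it called 5.77% of all genes (1.63% higher and 4.14% lower). The smallest p-values belonged to Kcnb2 (log2 -0.68 ± 0.156 SE, adjusted p = 0.0934) and Cacna1e (log2 1.55 ± 0.36 SE, adjusted p = 0.0967). Of the 67, 51 lay below 0 and the median was -0.43, against 0.01 over all genes, or -0.18 with the neuron term.

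Against Six6KO, 0 of 67 passed in edgeR, where 0.233% of all genes did. An unadjusted p under 0.05 was reached by 18 channel genes (26.9%, against 14.8% of all genes), 4 higher and 14 lower, where 6.24% and 8.57% of all genes were, and DESeq2 called 7 (3 higher and 4 lower), where it called 4.98% of all genes (2.29% higher and 2.7% lower). Cacna1e (log2 2.30 ± 0.437 SE, adjusted p = 0.0847) and Kcnh5 (log2 1.78 ± 0.357 SE, adjusted p = 0.0916) came nearest. The median was -0.06, with 37 of 67 below 0; it was -0.45 (45 below 0) with the mesenchyme term, -0.38 (47 below 0) without Six3KO rh026 and Six6KO rh020, and -0.18 (44 below 0) with the neuron term. These comparisons share the DKO libraries with the comparison against WT and so are not independent of it. In all 3 comparisons of DKO, an unadjusted p under 0.05 with 1 direction was reached by 3 channel genes on the higher side (4.48%, against 2.36% of all genes) and 7 on the lower side (10.4%, against 4.01%).

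Whether DKO departed from the sum of the single effects was tested as an interaction on the log2 scale. In edgeR 0 of 67 channel genes and 0% of all genes passed, and DESeq2 called 2 channel genes, Cacna1e and Kcnq5, and 1.79% of all genes. An unadjusted p under 0.05 was reached by 10 channel genes (14.9%, against 9.99% of all genes). Cacna1e exceeded the sum by 2.18 ± 0.555 SE (unadjusted p = 0.00314, adjusted p = 0.336) and Kcnh5 by 1.19 ± 0.459 SE (adjusted p = 0.429). For Kcnb2 the departure was -0.33 ± 0.233 SE and for Kcnf1 -0.65 ± 0.815 SE, both within the range that the error allows around 0. In a test for any difference among the 4 groups, 0 of 67 passed, 0.346% of all genes did, and the lowest adjusted p was 0.0878, for Kcnh5 and Cacna1e.

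**Figure D4:**
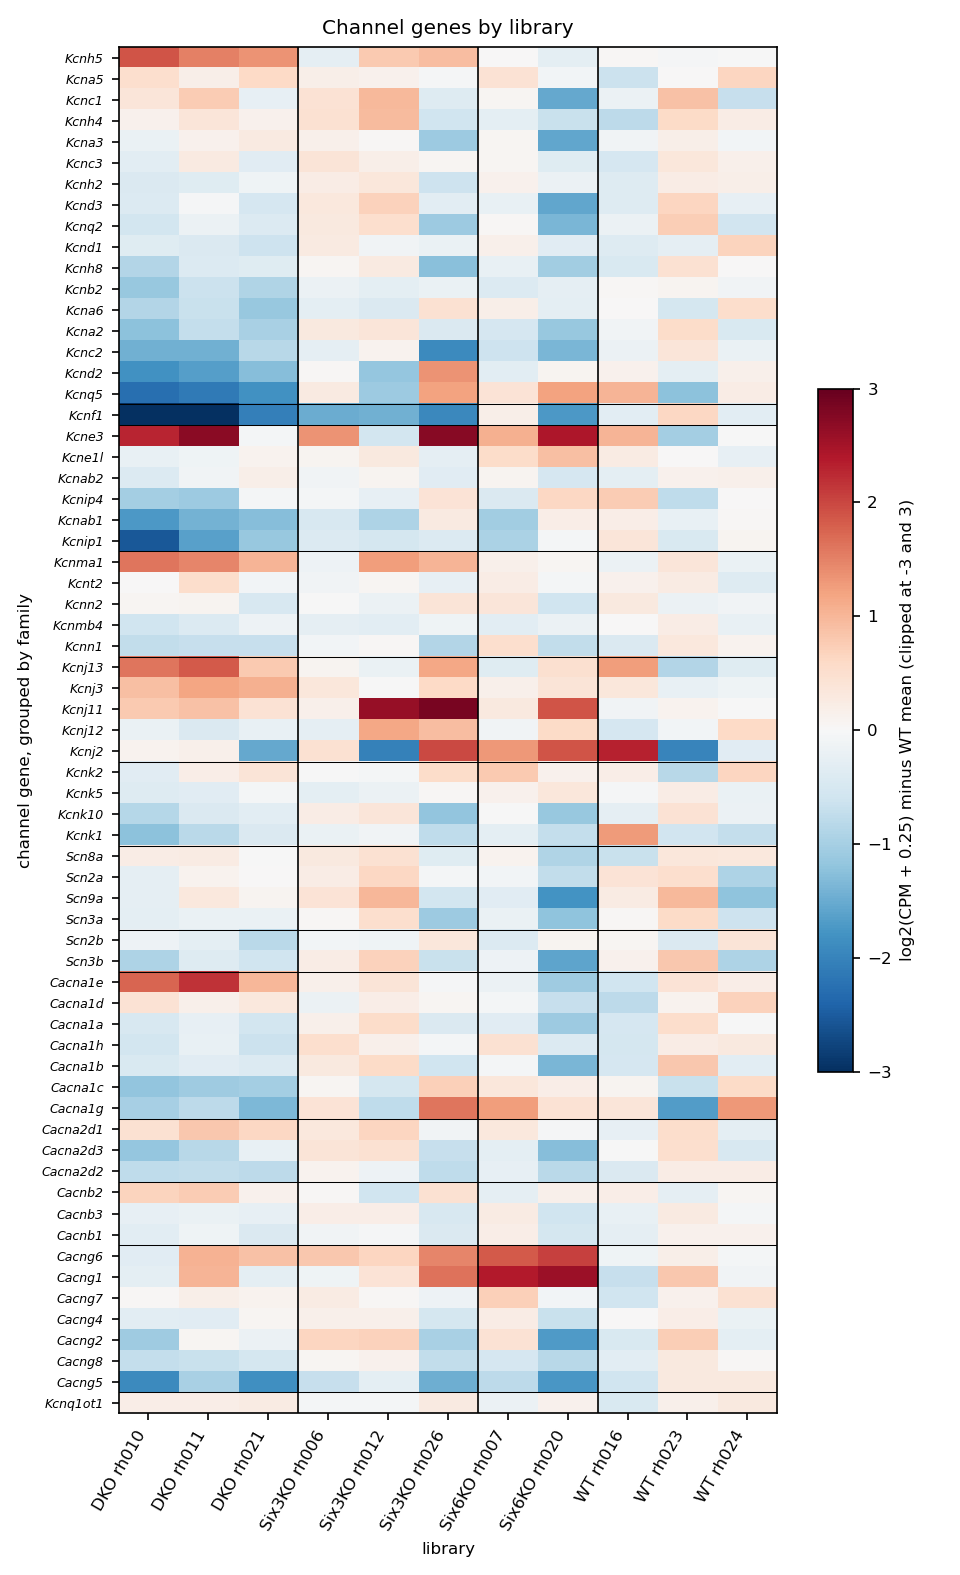
65 of the 67 channel genes (rows, grouped by family) in each library (columns, in the order DKO, Six3KO, Six6KO, WT), as log2 of CPM plus 0.25 minus the WT mean. The 3 DKO columns resemble each other, and the Six3KO, Six6KO and WT columns vary within their groups.

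Within groups, the channel genes varied more than genes in general. The median SD of log2 CPM was 0.245 in DKO, 0.484 in Six3KO, 0.511 in Six6KO and 0.505 in WT for the channel genes, against 0.128, 0.176, 0.244 and 0.256 over all genes. By mean level, 2 channel genes lay under 1 CPM, 27 between 1 and 10, 30 between 10 and 50, and 8 at 50 or more. These levels were not set beside those of all genes, and their part in the spread was not tested. Summed over all 67, the level was 2578 to 2714 CPM in DKO and 2068 to 2975 CPM in WT, of which Kcnq1ot1 alone made up 1364 to 1419 CPM in DKO and 872 to 1460 CPM in WT.

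Per kilobase of exon, which allows genes to be compared, the highest mean level over the 11 libraries was that of Cacnb3, a calcium channel beta subunit, at 17.6 CPM per kb. It was followed by Kcnq1ot1 at 13.6, Cacna2d1 at 11.2, Cacng7 at 9.91 and Cacng4 at 9.62 CPM per kb. The highest potassium channel pore was Kcnh2, an ERG-type channel, at 8.31 CPM per kb, and the highest calcium and sodium channel pores were Cacna1d at 8.30 and Scn3a at 5.92 CPM per kb. None of these was called in DKO against WT. The lowest was Kcnip1 at 0.393 CPM per kb.

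**Figure D5:**
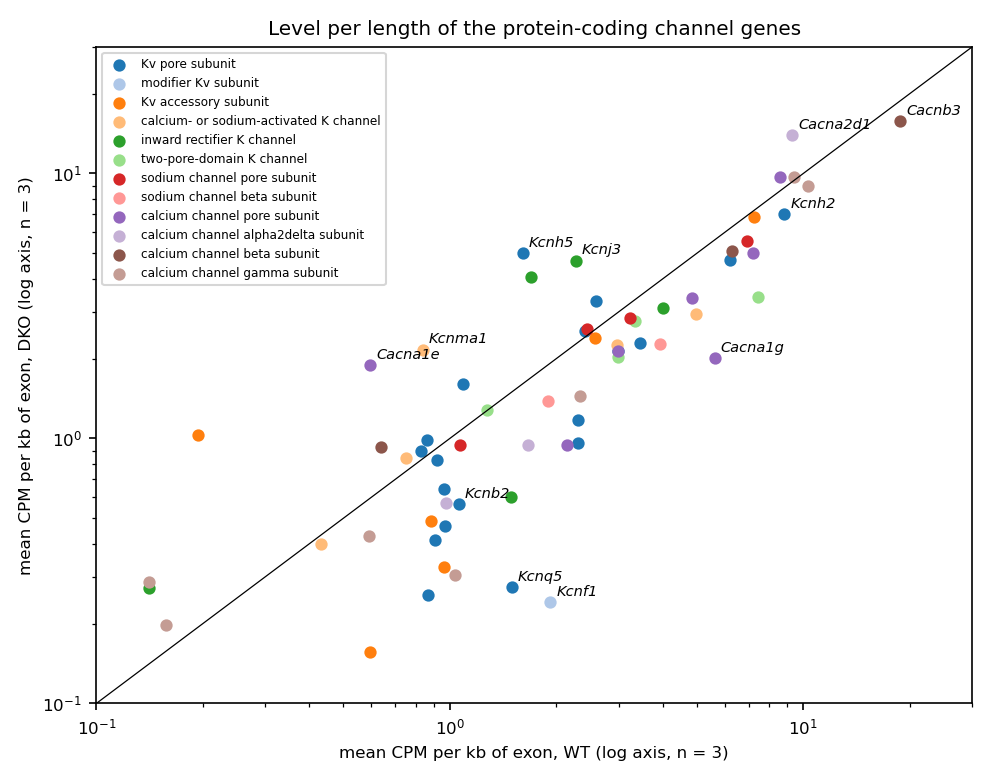
Mean CPM per kilobase of exon in DKO (vertical) and WT (horizontal), 3 libraries each, on log axes, with 1 point for each of the 66 protein-coding channel genes, coloured by family, and a line of equal level. Kcnh5, Kcnj3 and Cacna1e lie above the line, Kcnb2 and Kcnf1 below it, and Cacnb3 at the upper right.

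Genes whose products work with these channels were counted as a separate list of 42, of which 31 were tested. In DKO against WT 1 of the 31 passed higher and 0 lower, with a median of -0.18. Over all genes tested, 0.655% passed higher and 0.639% lower, so a count of 1 is not a result about the list. The gene was Cntnap2, an adhesion protein that gathers Shaker-type potassium channels along axons. It averaged 206 ± 26.6 CPM in DKO, 57.1 ± 21.4 CPM in Six3KO and 40.7 ± 12.1 CPM in WT (SD, n = 3 each), with 49.9 CPM as the mean of 2 Six6KO libraries. It was 5.06-fold higher in DKO than in WT (log2 2.34 ± 0.303 SE, adjusted p = 0.0102) and 3.61-fold higher than in Six3KO (log2 1.85 ± 0.297 SE, adjusted p = 0.0293); against Six6KO it had log2 2.05 ± 0.349 SE with adjusted p = 0.0598. Fgf12, which binds sodium channels inside the cell, averaged 9.73 ± 1.59 CPM in DKO, against 20.0 ± 5.49 CPM in WT, with adjusted p = 0.137, and its relative Fgf13 averaged 63.6 ± 6.52 CPM in DKO, against 39.7 ± 9.77 CPM in WT, with adjusted p = 0.293. The hyperpolarization-activated channel genes Hcn3 and Hcn4 did not pass in any comparison.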

How the data were processed

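The authors deposited raw read counts per gene symbol, 1 library per column. Per the submitters' processing notes, the tools were Trim Galore 0.3.7, TopHat2 2.0.13 (mm10 build) and HTSeq 0.6.1. Per the labels' protocols, ribosomal RNA was depleted. Neither the strand setting nor the rule that chose the rows of the table is stated. Pairs of retinas were the biological replicates, per the design text, and the third Six6KO sample was dropped there because of duplicated reads.

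Counts were tested with edgeR 4.0.16 (quasi-likelihood test, robust, TMM scaling, filterByExpr minimum count 10) in 1 fit of all 11 libraries, with Benjamini-Hochberg adjustment over 13292 genes and a threshold of 0.05. SE is the absolute log2 fold change divided by the root of F. CPM is scaled by TMM, and lengths are exon unions of the GENCODE annotation. No pair of libraries in a group agreed within sampling noise (chi-square per degree of freedom 9.85 to 77.9). The fit was tested on simulated data. Alternatives were other scalings and filters, DESeq2 1.42.0, the compared groups alone, each library left out, and a mesenchyme term. A neuron term, and a fit without Six3KO rh026 and Six6KO rh020, were added after seeing the data.

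Channel genes, partner genes and marker lists were chosen with earlier results of these data known. Named genes were those called in any comparison, those with the smallest p in their family or in a comparison, those highest per kilobase in their family, and others given for contrast after their values were seen. Results of 3 genes are not reported here singly, though counts and medians over the lists include them.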

Additional observations from a re-analysis of the deposited data

Results flagged for a closer look

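Cacng6, a gamma subunit gene, was picked out because its Six3-related difference had opposite directions in the 2 Six6 backgrounds. It had 2, 10 and 9 reads (range 0.164 to 0.828 CPM) in DKO, against 14 and 18 reads in Six6KO, and 11, 6 and 12 reads in Six3KO, against 3, 3 and 2 reads in WT. The log2 fold change was -1.62 in DKO against Six6KO and 1.52 in Six3KO against WT. The difference of these effects was -3.14 ± 0.888 SE on the log2 scale (edgeR's quasi-likelihood test, unadjusted p = 0.00563, adjusted p = 0.336), so it did not pass. The summed skeletal muscle markers were 10.2 to 1132 CPM in DKO, 98.7 to 1614 CPM in Six3KO, 2528 and 2588 CPM in Six6KO and 23.3 to 60.2 CPM in WT, and their part in the Cacng6 values was not tested.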

How the results depend on the processing

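No paired analysis was possible because the columns carry a group and a library name but no replicate number. Most channel genes lay under 50 CPM, so counting error is part of their spread, and a gene that did not pass is not shown to be unchanged. Under DESeq2, genes called numbered 769 in DKO against WT (172 in edgeR), 20 in Six3KO against WT, 2 in Six6KO against WT, 775 in DKO against Six3KO, 669 in DKO against Six6KO and 240 for the departure, and channel genes called higher and lower numbered 4 and 7, 0 and 0, 0 and 0, 3 and 6, 3 and 4, and 1 and 1. With the neuron term the counts of all genes were 659, 2, 0, 479, 170 and 1, and 298 for any difference among the groups; channel genes higher and lower were 4 and 8 in DKO against WT, 1 and 6 against Six3KO, and 2 and 1 against Six6KO. With the mesenchyme term, 50 genes passed in DKO against Six3KO, 1 against Six6KO and 4 for any difference, and 1 channel gene was higher (Kcnj3) and 1 lower (Kcnf1) in DKO against WT; Kcnh5 and Kcnb2 no longer passed, at adjusted p = 0.107 and 0.0867.

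Without Six3KO rh026 and Six6KO rh020, 283 genes passed in DKO against WT, with 4 channel genes lower, 37 in DKO against Six3KO and 4 in DKO against Six6KO. Without scaling beyond library size, 1 channel gene was higher in DKO against WT. With the compared groups alone, 1 was lower in DKO against WT, 10 genes passed in Six6KO against WT and 682 in DKO against Six6KO, there with 3 channel genes higher and 3 lower. Leaving out 1 library at a time gave 20 to 205 genes in DKO against WT, with 0 to 2 channel genes higher and 0 to 1 lower, 1 in Six3KO against WT, 0 to 1 in Six6KO against WT, 16 to 91 in DKO against Six3KO, 1 to 77 in DKO against Six6KO with 0 to 1 channel gene higher, 0 to 3 for the departure and 12 to 74 for any difference. Of 1384 values for single genes under the alternatives, 1286 kept their direction and side of the threshold, 26 no longer passed, 52 newly passed and 20 changed sign. None of the 4 genes called in DKO against WT changed sign. In DKO against WT, sign changed for Cacng7 (-0.071) and Scn2b (0.028) with the mesenchyme term, and for Scn2a (0.059), Scn3a (0.060) and Scn9a (0.36) with the neuron term. With 1 library left out, these values ranged between the following ends, the changed sign coming without WT rh016 for Cacna1d (-0.12 and 0.58), Cacng7 (-0.21 and 0.30), Kcne1l (-0.21 and 0.045) and Kcnq1ot1 (-0.013 and 0.33), without WT rh023 for Kcnd3 (-0.58 and 0.0030), Scn2a (-0.52 and 0.045), Scn3a (-0.57 and 0.020) and Scn9a (-0.58 and 0.37), without WT rh024 for Kcnj12 (-0.59 and 0.0038), and without DKO rh010 for Kcnab2 (-0.26 and 0.031). With the mesenchyme term, sign changed for Cacna1g against Six3KO (0.79), for Cacna1g (0.96), Kcna6 (0.125) and Kcnd2 (0.094) against Six6KO, and for the departure of Kcnd2 (0.060). Fits with the mesenchyme term cannot fully tell mesenchyme level and DKO genotype apart, and the cause of these changes was not tested.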
